A study of Mus musculus with 3 samples.

Results

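The dormant mouse blastocyst is an embryo that has stopped growing inside the uterus and waits there for an ovarian signal. Its genes were ranked here by their level in the 1 library made from such embryos. Genes on the mitochondrial chromosome, genes with under 300 bases of exon and genes with under 100 exon reads were left out, and the others were ordered by the authors' RPKM (a level per unit of exon, made from the exon reads by dividing by exon length and by library depth). These rules kept 7972 of the 31510 genes in the table, 7680 of them protein-coding in GENCODE M21. Of the genes left out, 38 were mitochondrial, 4588 had short exons and 18912 had fewer reads, 7990 of these with none. The 267 genes just inside the limit, less than 10 reads above it, had a median of 3.43 RPKM, and the 271 genes just outside it, up to 10 reads below, had a median of 2.82 RPKM.

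The embryos came from CD-1 females, 2 months of age, whose ovaries were removed on the morning of day 4 of pregnancy. All mothers received 2 mg of progesterone per mouse daily on days 5 to 7, and dormant blastocysts were flushed from the uterus on day 8. The other 2 groups came from mothers that also had an injection of estradiol (E2) on day 7: the reactivating group was taken after 6 h and the reactivated group after 12 h. Each group was 1 library from more than 3000 pooled blastocysts, prepared from total RNA after removal of ribosomal RNA and read on the SOLiD platform in single 50 bp reads. There are no replicates, so intervals below are 95% intervals of counting alone (Poisson for RPKM, Wilson for shares), and no difference between groups has a test. Since the reads carry no molecular identifiers, they are not independent molecules.

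Embryonic diapause is a reversible pause at the blastocyst stage. In the mouse it follows the loss of ovarian estrogen while progesterone continues, cell division and metabolism fall to a low level, and estrogen lets the embryo resume growth and attach. A blastocyst has an outer epithelium, the trophectoderm, which pumps fluid into the cavity and meets the uterus, and an inner cell mass made of epiblast and primitive endoderm. Reads inside introns come from RNA that has not been spliced or from stable RNAs released from introns, such as the small nucleolar RNAs (snoRNAs) that guide the modification of ribosomal RNA.

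The dormant library held 9298675 exon reads and 3554921 intron reads, against 10364607 and 3479754 in the reactivating and 12941447 and 3982790 in the reactivated library. Mitochondrial genes took 19.7% of the dormant exon reads, 19.8% of the reactivating and 25.8% of the reactivated ones. Most listed markers of the 3 blastocyst lineages reached 1 RPKM. They were 14 of 15 trophectoderm transcription factors, 21 of 22 epiblast and naive pluripotency factors and 19 of 21 primitive endoderm markers. Esrrb is counted in both the trophectoderm and the epiblast list. The share of all genes that reached this level is not given here, so the counts only describe the lists. In these pooled embryos fewer cells of a type and less RNA per cell cannot be told apart. Of the markers of other cells, 8 of 18 for uterine epithelium reached 1 RPKM (summed level 237 RPKM), with Esr1 and Pgr at 0.15 and 0.14 RPKM. For uterine stroma and endothelium it was 4 of 14 (summed 15.8 RPKM), for immune cells 6 of 17 (34.1 RPKM, with Ptprc at 0.09), for oocytes 3 of 17 (19.7 RPKM, with 7 genes at 0 reads) and for red blood cells 0 of 9 (0.76 RPKM, with 5 genes at 0 reads). In the reactivating and reactivated libraries the summed levels were 205 and 174 RPKM for uterine epithelium, 13.4 and 10.4 for stroma and endothelium, 26.1 and 45.5 for immune cells and 21.2 and 18.4 for oocytes. The part of other cells in the levels below was not tested.

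Levels were spread over a wide range, with a few genes far above the others. Protein-coding members ran from 0.37 to 2681 RPKM with a median of 9.70 RPKM and quartiles of 5.23 and 18.4 RPKM. The gene at rank 40 had 223 RPKM, that at rank 100 had 114 RPKM and that at rank 500 had 47.4 RPKM. The single highest gene, Psap, held 1.86% of the summed RPKM of the protein-coding members, the top 10 held 7.93%, the top 100 held 21.1% and the top 500 held 40.4%. The highest 155 genes made up 25% of the sum, 854 genes made up 50% and 2535 genes made up 75%.

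**Figure D1:**
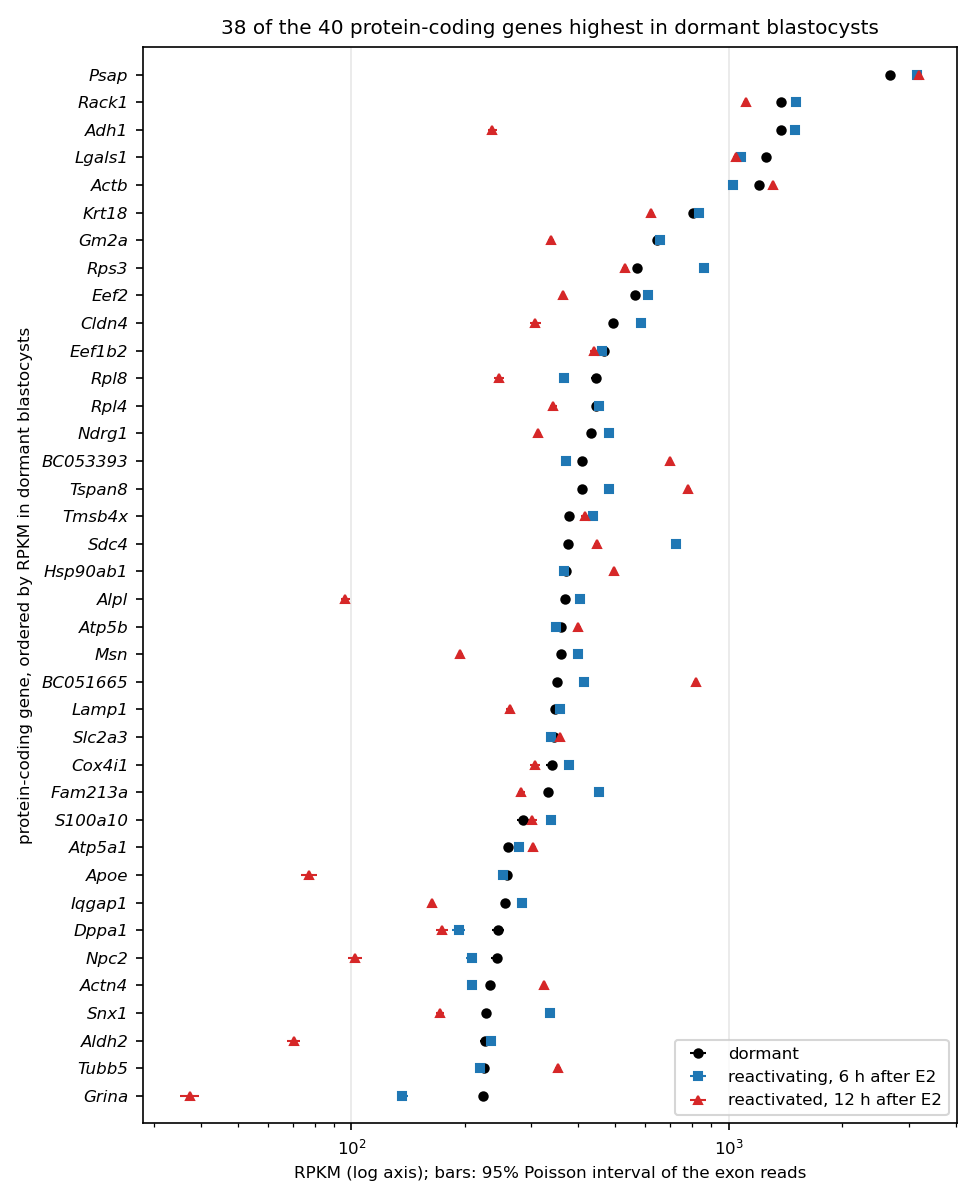
RPKM (log axis) of 38 of the 40 protein-coding genes with the highest level in dormant blastocysts, with dormant (black circles), reactivating (blue squares) and reactivated (red triangles) libraries, 1 library each, and 95% Poisson intervals of the exon reads as bars. Psap leads in all 3 libraries, and Adh1, Alpl, Apoe, Aldh2 and Grina stand apart by their low reactivated values.

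To describe the 100 highest protein-coding genes by function, they were sorted by hand into 13 classes after their values had been seen. Ranks of protein-coding genes cover only genes listed as such in M21, so the 146 members not in M21 could not enter. Rpl13a, with 138 RPKM against 114 RPKM at rank 100, has no such rank and is in no class. The class with the largest sum was that of lysosomes, endosomes and cathepsin control, with 13 genes and 5397 RPKM (17.8% of the RPKM of the 100 genes). Psap alone gave 2681 RPKM of this sum, and without it the class would lie below translation and the cytoskeleton. The class is broad and also holds genes of membrane traffic such as Clta, Cltc and Rab11a. Translation followed with 9 genes and 5201 RPKM (17.1%), and the cytoskeleton with 16 genes and 4856 RPKM (16%). These 3 classes were followed by metabolic and redox enzymes (7 genes, 2795 RPKM), by galectins, S100 and other calcium-binding proteins (7 genes, 2397 RPKM), by junctions and adhesion (9 genes, 2182 RPKM) and by mitochondrial ATP production (8 genes, 1625 RPKM).

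**Figure D2:**
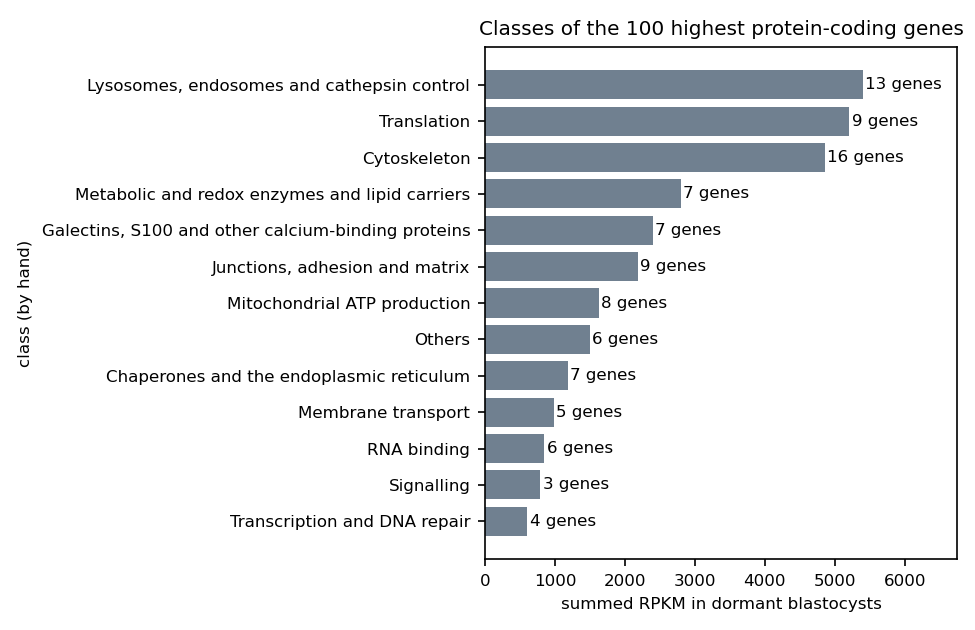
Summed RPKM in the dormant library of the 100 highest protein-coding genes in 13 classes made by hand, with the number of genes beside each bar. The bars for lysosomes and endosomes, translation and the cytoskeleton reach 5397, 5201 and 4856 RPKM, and no other class passes 2795 RPKM. Psap alone gives 2681 RPKM of the first bar.

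The most abundant mRNA of the dormant embryo was that of Psap (ENSMUSG00000004207, GRCm38 chromosome 10, 60277627 to 60302597). It encodes prosaposin, the precursor of the saposins that help lysosomal enzymes to break down sphingolipids. Its level was 2681 RPKM in the dormant library (interval 2665 to 2698, from 100501 exon reads), 3150 in the reactivating and 3202 in the reactivated library. Psap was thus the first protein-coding gene in every library. Gm2a (chromosome 11, 55098115 to 55113029), the activator protein for the breakdown of the ganglioside GM2 in the lysosome, was at rank 8 with 646 RPKM (636 to 655), then 658 and 338 RPKM. Lamp1, a main glycoprotein of the lysosomal membrane, had 348, 358 and 263 RPKM in the dormant, reactivating and reactivated libraries. Npc2, which hands cholesterol out of the lysosome, had 243, 208 and 102.2 RPKM. Among the proteases, the cathepsins Ctsl and Ctsd had 217 and 144 RPKM in the dormant library, and Cstb, an inhibitor of cathepsins, had 202 RPKM. Of a wider list of 41 lysosome and autophagy genes, 37 were members, with a median of 30.1 RPKM against 9.82 RPKM over all members. The hexosaminidase subunit Hexa (113 RPKM), which acts with Gm2a, and the proton pump subunit Atp6v0d1 (84.0 RPKM) were in its upper range. Tfeb, a transcription factor for lysosomal genes, had 31.0 RPKM.

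Next in rank came genes of protein synthesis. Rack1 (chromosome 11, 48800332 to 48806434), a scaffold protein of the small ribosomal subunit, was at rank 2 with 1377 RPKM (1359 to 1396), then 1510 and 1109 RPKM. The ribosomal protein genes Rps3, Rpl8 and Rpl4 had 573, 444 and 444 RPKM in the dormant library. The elongation factors Eef2, which moves the ribosome along, and Eef1b2, the exchange factor of elongation factor 1, had 564 and 467 RPKM, and Eef1a1, which brings the charged tRNA, had 206 RPKM. Of 37 translation factor genes 36 were members, with a median of 35.9 RPKM.

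Ribosomal protein genes did not form a uniform group in these counts. Of 74 cytosolic ribosomal protein genes in the deposited table, 32 were members and 42 had under 100 exon reads, although none was at 0. The lowest member was Rpl18 with 2.44 RPKM, Rps3 was among the high ones, and no gene left out passed 14.3 RPKM. Rpl13a had 138 RPKM, and Rpl3 had 3.51 RPKM. The same spread appeared among other genes with processed copies elsewhere in the genome: Gapdh had 1.47 RPKM from 31 exon reads, and Actg1 had 2.74 RPKM beside 1200 RPKM for Actb. The tables do not state how reads that match several places were counted, so the levels of such genes are uncertain, and the part of their copies was not tested. Processed pseudogenes were ranked themselves: 127 members were pseudogenes, 116 of them without an intron read. The highest, Fabp3-ps1, had 943, 630 and 362 RPKM in the 3 libraries, while Fabp3, the heart type fatty acid binding protein gene with introns, had 113, 125 and 85.6 RPKM.

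The cytoskeleton was represented by both of its epithelial parts. Actb (chromosome 5, 142903115 to 142906754), cytoplasmic beta-actin, had 1200 RPKM (1184 to 1217), then 1024 and 1310 RPKM. Krt18 (chromosome 15, 102028180 to 102032027), a keratin of simple epithelia and of the trophectoderm, had 807, 834 and 624 RPKM, and its partner Krt8 had 105 RPKM in the dormant library. Tmsb4x, which binds actin monomers, had 377 RPKM, Msn, which links actin to the membrane, 359 RPKM, Iqgap1, a scaffold at the cell cortex, 255 RPKM, and Actn4, an actin crosslinker, 233 RPKM. Of 30 actin and actin-binding genes in the table, 28 were members with a median of 60.3 RPKM. Tubb5, a beta-tubulin, had 224 RPKM, while the other 8 tubulin genes stayed at or under 14.5 RPKM. The counting of reads that match several tubulin genes is not stated, so these levels are uncertain as well.

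Calcium- and sugar-binding proteins formed a smaller group. Lgals1 (chromosome 15, 78926725 to 78930465), galectin-1, was at rank 4 with 1255 RPKM (1229 to 1281), then 1081 and 1049 RPKM. Lgals3 had 167 RPKM. S100a10, the partner of annexin A2, had 286 RPKM, and Anxa2 itself 132 RPKM. S100a1 and S100a16 had 159 and 144 RPKM.

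Among enzymes, Adh1 (chromosome 3, 138260991 to 138290698), an alcohol dehydrogenase that also oxidises retinol, was at rank 3 with 1375 RPKM (1358 to 1392). It had 1497 RPKM in the reactivating and 237 RPKM (231 to 243) in the reactivated library, whose interval lies far from the other two. Of the 16 genes of the retinol and alcohol list 4 were members. Adh5 had 31.2 RPKM and Cyp26a1, which breaks down retinoic acid, 16.9 RPKM, while the retinaldehyde dehydrogenases Aldh1a1, Aldh1a2 and Aldh1a3 had 0.31, 0.67 and 0.29 RPKM. Alpl, tissue-nonspecific alkaline phosphatase, had 368, 404 and 96.4 RPKM in the dormant, reactivating and reactivated libraries. Apoe, a lipid carrier and a primitive endoderm marker here, had 258, 252 and 77.4 RPKM, and Aldh2, the mitochondrial aldehyde dehydrogenase, had 225, 235 and 70.3 RPKM. In each of these genes the reactivating value lay near the dormant one and the reactivated value far below both.

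Some genes of glucose uptake and breakdown stood high, as did the list of nuclear oxidative phosphorylation genes. Slc2a3, a high affinity glucose transporter, had 344 RPKM in the dormant library, Hk2, the hexokinase that traps glucose, 103 RPKM, and Aldoa 120 RPKM. Other genes of the same list were low. Of its 23 genes of glycolysis and lactate transport 16 were members, with a median of 22.96 RPKM. Over all 23 genes the median was 7.80 RPKM, with Pgk1 at 0.54 and Pgam1 at 0.04 RPKM. The lactate dehydrogenases Ldha and Ldhb had 3.55 and 0.90 RPKM, both near or under the limit of 100 reads. The counting of reads that match several places is not stated, so low levels in this list, which also holds Gapdh, are uncertain. Of 56 nuclear genes of oxidative phosphorylation 46 were members, with a median of 50.5 RPKM against 9.82 RPKM over all members. The subunits of the ATP synthase Atp5b and Atp5a1 had 360 and 260 RPKM, and the cytochrome c oxidase subunits Cox4i1 and Cox5a had 339 and 130 RPKM. Their values at 6 and 12 h were close to these: Atp5b had 349 and 400 RPKM and Cox4i1 377 and 306 RPKM.

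Junction genes of the trophectoderm, the epithelium that seals the cavity, were measured throughout. Every one of the 28 junction and adhesion genes of the list was a member, with a median of 34.2 RPKM. Cldn4 (chromosome 5, 134945119 to 134946934), a tight junction claudin whose gene has no intron, led with 495 RPKM (481 to 510), then 586 and 307 RPKM. Gjb2, the gap junction protein connexin 26, had 190 RPKM (186 to 195) and 213 RPKM, and then 13.2 RPKM (12.2 to 14.3) in the reactivated library. Cdh1, E-cadherin, and Epcam had 138 and 135 RPKM. Sdc4, a heparan sulfate proteoglycan of the cell surface, had 374, 726 and 447 RPKM, and Tspan8, a tetraspanin, 409, 481 and 782 RPKM. Of the pumps and channels that fill the cavity, Atp1b1, the beta subunit of the sodium pump, had 61.0 RPKM, and the aquaporins Aqp3, Aqp8 and Aqp9 109.02, 59.4 and 34.5 RPKM.

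Chaperones were among the abundant mRNAs as well. Hsp90ab1, the constitutive cytosolic Hsp90, had 371 RPKM, and 18 of 20 cytosolic and mitochondrial chaperone genes were members with a median of 69.6 RPKM. Subunits of the chaperonin that folds actin and tubulin lay close together, from 79.2 RPKM for Cct6a to 135 RPKM for Cct5. In the endoplasmic reticulum Calr, P4hb and Hspa5 had 160, 139 and 121 RPKM.

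Transcription factors rarely reached this height. Elf3, an epithelial Ets factor, had 174 RPKM, Atf4, the factor of the integrated stress response, 141 RPKM and Klf5 127 RPKM. Of the trophectoderm list Klf5, Cdx2 and Eomes led with 127, 113 and 87.9 RPKM, and Hand1 was at 0.53 RPKM. Of the epiblast and naive list Dppa5a had 123 RPKM, Sall4 104 RPKM, Tfcp2l1 87.6 RPKM and Pou5f1 87.1 RPKM, while Nanog had 14.6 and Sox2 14.0 RPKM. Of the primitive endoderm list Apoe, Dab2 and Sparc led with 258, 138 and 128 RPKM, and the laminins Lamb1, Lama1 and Lamc1 had 108, 107 and 104 RPKM. Dppa1, a gene of early embryos and embryonic stem cells, had 245 RPKM.

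Growth genes and brakes on growth were measured side by side. Of 35 cell cycle and DNA replication genes 24 were members with a median of 9.98 RPKM, close to that of all members. Cdk4 had 90.2 RPKM and Mcm2, a subunit of the replicative helicase, 51.8 RPKM. Mitotic genes of the list differed: Plk1 and Ccnb1 had 1.71 and 1.47 RPKM and Bub1 3.26 RPKM. Aurka, Cdc20 and Cdk1 had 9.33, 9.65 and 11.5 RPKM, near the median of the list's members. Of 29 genes of the list for cell cycle inhibitors and quiescence 18 were members with a median of 9.47 RPKM, led by Nupr1, a stress-induced chromatin protein, with 104 RPKM and Klf9 with 45.7 RPKM. Cdkn1b, the inhibitor p27, had 4.99 RPKM. Of 29 immediate early genes 19 were members with a median of 19.2 RPKM, with Rhob at 97.9, Jund at 74.0 and Fos at 49.8 RPKM. These medians leave out the genes under 100 reads. With them, the medians were 7.87 RPKM for the cell cycle list, 3.85 for the inhibitors and 5.94 for the immediate early genes.

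Some of the highest members were RNAs that are not translated. Rn7sk, the small nuclear RNA that holds the elongation factor P-TEFb inactive, had 14397 RPKM in the dormant, 22306 in the reactivating and 21488 in the reactivated library. A row described as nuclear RNase P RNA had 3965, 11414 and 4364 RPKM, and a row for a domain of ribosomal RNA had 1869, 3506 and 901 RPKM. The dormant library was the lowest for Rn7sk and the RNase P row and lay between the other two for the ribosomal row. H19 (chromosome 7, 142575529 to 142578143), an imprinted long noncoding RNA of embryonic and placental tissues, had 703, 757 and 571 RPKM. It held 20 intron reads beside 22403 exon reads. Igf2, its imprinted neighbour that encodes a growth factor, had 18.98, 18.95 and 17.8 RPKM.

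The second measure was the intron share, the reads in introns as a percentage of the exon and intron reads of a gene. A total of 7710 members had introns and 262 had none. Their median intron share was 24.1%, with quartiles of 13.8 and 38.5%, and 33 of them had no intron read. Summed over genes, introns held 32.9% of the reads. As introns are far longer than exons, the density of reads per kilobase was also taken: the median density in introns was 4.13% of that in exons. Of the exon reads of a member a median of 15.04% crossed a junction of exons.

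A small set of genes held a large part of the intron reads. In 156 members (2.02% of those with introns) a small RNA gene with reads of its own lies inside the gene, and these 156 held 27.1% of all intron reads, 741770 of 2741916. The 10 genes with the most intron reads held 15.6%. The summed reads of the small RNA rows inside the 156 genes were 562925. Of the 54 genes with at least 500 such reads, the small RNA reads came to between 80 and 120% of the intron reads in 32, to more in 6 and to less in 16. In 10 of those 16 at least 1 small RNA gene inside has no row in the deposited tables, as it does in 9 of the 32. Rpl13a had 76004 intron reads, and the 4 snoRNA rows inside it had 75469. Rack1 had 45362 intron reads and 44689 snoRNA reads, so that its intron share of 67.4% would be 2.97% with the snoRNA reads taken off. Ipo7, which encodes an importin, had 42884 and 41685, and Rplp2 21365 and 21049. Rpl4 departed from this, with 70550 intron reads and 3048 in the rows of 3 of its 5 small RNA genes. Whether a read was counted both for the snoRNA and for the intron of its host cannot be read from the tables.

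**Figure D3:**
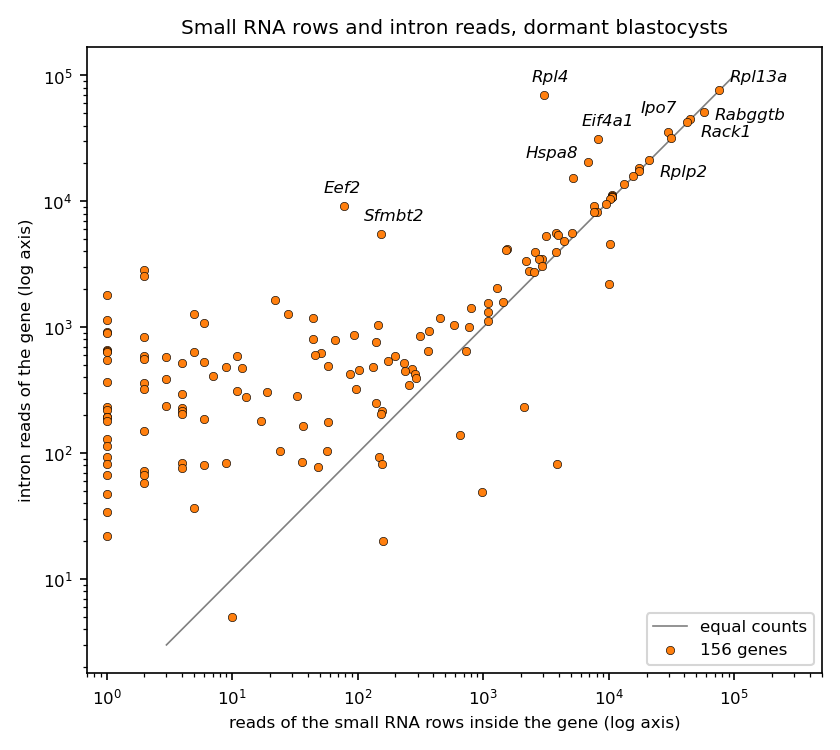
Reads of the small RNA rows inside a gene (horizontal, log axis) against the intron reads of that gene (vertical, log axis) for 156 genes of the dormant library, with a line at equal counts. From about 500 small RNA reads upward 32 of 54 genes lie within 80 to 120%, and Rpl4, Eif4a1 and Hspa8 lie above the line.

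The snoRNAs inside Rack1, the second most abundant mRNA, and examples from Rpl13a, Ipo7 and Rplp2 are shown, because in these genes the summed snoRNA reads come close in number to the intron reads. The examples were chosen after their values were seen, and Gm24494 in Rabggtb (39827 reads) and Gm26447 in Eif4a2 (23501 reads) are not shown. Box C/D snoRNAs guide the methylation of ribosomal RNA and box H/ACA snoRNAs guide the conversion of uridine to pseudouridine. Sequences are those of the GENCODE M21 transcripts (GRCm38), 5′ to 3′ as DNA. Capitals mark the C box TGATGA in the first 20 bases, the D box CTGA in the last 15 bases and, for the last 2 sequences, ACA in the last 8 bases. Snord35a, the snoRNA with the most reads in Rpl13a, holds the D box but not the C box letters in these windows. Searched on the transcribed strand only, both C and D box were found in 305 of 1507 snoRNA genes of M21 (20.2%), and ACA in 706 (46.9%).
Gm25296, in Rack1, chr11:48800866-48800932, plus strand, 20519 reads: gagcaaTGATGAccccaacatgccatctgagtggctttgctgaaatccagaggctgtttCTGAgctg
Snord96a, in Rack1, chr11:48802032-48802112, plus strand, 11878 reads: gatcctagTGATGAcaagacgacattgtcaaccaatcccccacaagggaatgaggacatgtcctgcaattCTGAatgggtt
Snord95, in Rack1, chr11:48803139-48803206, plus strand, 12292 reads: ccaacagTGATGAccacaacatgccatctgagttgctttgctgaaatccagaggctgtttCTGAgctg
Snord35a, in Rpl13a, chr7:45126346-45126435, minus strand, 27223 reads: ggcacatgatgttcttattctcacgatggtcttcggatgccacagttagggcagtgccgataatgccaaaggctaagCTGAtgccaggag
Snord32a, in Rpl13a, chr7:45127382-45127464, minus strand, 22297 reads: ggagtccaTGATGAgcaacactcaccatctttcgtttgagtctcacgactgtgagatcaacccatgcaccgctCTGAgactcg
Snora23, in Ipo7, chr7:110046364-110046547, plus strand, 40898 reads: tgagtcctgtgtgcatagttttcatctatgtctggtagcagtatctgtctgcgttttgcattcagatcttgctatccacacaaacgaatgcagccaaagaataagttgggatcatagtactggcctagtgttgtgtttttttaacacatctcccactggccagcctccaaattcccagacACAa
Snora52, in Rplp2, chr7:141448803-141448939, plus strand, 21049 reads: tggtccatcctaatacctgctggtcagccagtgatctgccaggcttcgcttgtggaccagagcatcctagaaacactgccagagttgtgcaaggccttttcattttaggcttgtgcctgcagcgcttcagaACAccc

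The snoRNAs in Rack1, Ipo7 and Rplp2 lie outside the coding exons of their hosts in M21. In 3 of the 100 highest protein-coding genes the small RNA rows inside the gene held more reads than its introns. The gene 2410002F23Rik had 10347 exon reads and 9978 reads in small RNA rows inside it, and Ddx39b, an RNA helicase of mRNA export, had 7818 exon reads and 10320 small RNA reads. Whether such reads are also counted in the exons cannot be read from the tables. If the excess over the intron reads were, taking it off would move 2410002F23Rik from rank 63 to rank 723, Ddx39b from rank 48 to rank 432 and Eef1a1 from rank 45 to rank 49.

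In the 6908 members with introns and no annotated small RNA gene inside, the median share was 23.3% (quartiles 13.5 and 37.1%), the density 4.10% and the share of summed reads 26.3%. More than 50% of the reads lay in introns in 789 of them (11.4%). In the 156 genes with small RNA reads inside, the median share was 48.4% and the density 9.17%.

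Abundant mRNAs had a lower intron share and density than rare ones. The 6908 genes were divided by RPKM into 10 groups of equal size. In the highest group (median 53.5 RPKM) the median intron share was 12.8%, and in the lowest group (median 2.29 RPKM) it was 35.1%. The density went from 2.03% to 6.31% from the highest to the lowest group, and the part of exon reads that crossed a junction from 17.6% to 11.1%. Across the 6908 genes Spearman's rho between RPKM and share was -0.33 and that between RPKM and density -0.45, given as a description, since genes of 1 library share its depth and RPKM and share are both computed from the same exon reads. The 98 genes with introns among the top 100 had a median share of 10% and a density of 1.76%. Psap had 7663 intron reads, a share of 7.09% (6.93 to 7.24%) and a density of 0.91%, Adh1 a share of 5.61% and a density of 0.67%, and Gm2a 3.46% and 0.67%. Actb, whose introns are short, had 15.1% and 13.1%.

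**Figure D4:**
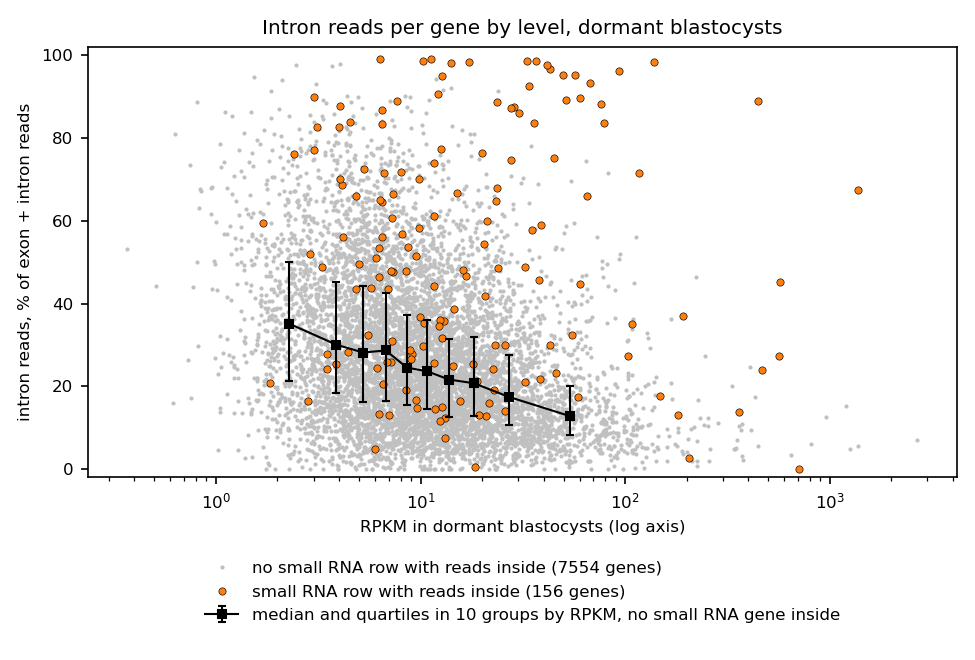
Intron reads as a percentage of exon and intron reads (vertical) against RPKM (horizontal, log axis) for 7710 members with introns in the dormant library: grey points without and orange points with reads in a small RNA row inside. Black squares with bars give the median and quartiles in 10 groups by RPKM for 6908 genes with no small RNA gene inside, falling from 35.1% in the lowest group to 12.8% in the highest.

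The plain share rose with intron length. With the 6908 genes in 5 groups of equal size by intron length, in the group with the shortest introns (up to 7.09 kb in all) the median share was 9.19%, and in the group with the longest (60.1 kb and more) it was 44.6%. The density moved the other way, from 5.44% to 3.43%. Spearman's rho between total intron length and share was 0.71 and that between intron length and RPKM was -0.19.

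At the upper end of the share, 9 of the 12 protein-coding genes with at least 500 reads and the highest intron share held small RNA genes, among them Eif4a1 (99.1%), Hspa8 (99.1%), Rabggtb and Rplp2 (98.7% each), Rpl30 (98.6%), Tpt1 (98.4%), Rps3a1 (98.3%) and Rpl32 (96.3%). The other 3 were Cmss1 (98.0%), Wdr92 (97.7%) and Auts2 (97.5%), all of which hold or overlap another annotated gene. Auts2, a chromatin and neurodevelopment gene with 1098 kb of intron, had 12748 intron reads and 328 exon reads, and its share was 97.2% in the reactivating and 98.0% in the reactivated library. Cmss1 had 5635 intron reads over 303 kb and Wdr92 5047 over 19.9 kb, at 732% of the read density of its exons. Among genes with no annotated small RNA inside, chosen after their values were seen, long genes such as Fbxl17 (91.4%), Gphn (89.98%), Gtdc1 (89.1%) and Smyd3 (88.7%) had high shares at densities of 9.78, 6.49, 7.56 and 6.21%.

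At the lower end lay mostly genes with short introns: of the 12 genes with the lowest share above 0, 11 had at most 2.23 kb of intron. Arf6, a small GTPase of membrane traffic, had 1 intron read beside 971 exon reads (0.10%), Gpx1, a glutathione peroxidase, 3 beside 1335 (0.22%), Dppa5a, an RNA-binding protein of pluripotent cells, 3 beside 1033 (0.29%), and Igf2 8 beside 1406 (0.57%). Grina, a membrane protein of the Bax inhibitor family, had 41 beside 5337 (0.76%). The intron length was 0.10 kb in Arf6, 0.22 kb in Gpx1 and 0.51 kb in Dppa5a but 10.8 kb in Igf2, whose density of 0.28% was the lowest of these.

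Gene lists differed in their intron reads. Over genes without a small RNA gene inside, the median density was 10.99% in 19 ribosomal protein genes, 9.05% in 36 genes of splicing factors and hnRNPs (the proteins that coat nuclear RNA) and 7.61% in 15 immediate early genes, against 4.10% over the 6908 genes. Their median shares were 27.9, 33.6 and 7.71% against 23.3%. It was 2.75% in 37 lysosome and autophagy genes, 2.00% in 43 genes of oxidative phosphorylation, 1.95% in 23 junction and adhesion genes and 1.38% in 15 primitive endoderm markers. In 29 chromatin regulators (3.85%) and 27 genes of lipid metabolism (4.03%) it lay near that of the 6908 genes. The exon reads of ribosomal protein genes are uncertain, since the counting of reads that match several places is not stated. Density and share both rest on the exon reads, so both are uncertain in these genes, and the part of their copies was not tested.

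**Figure D5:**
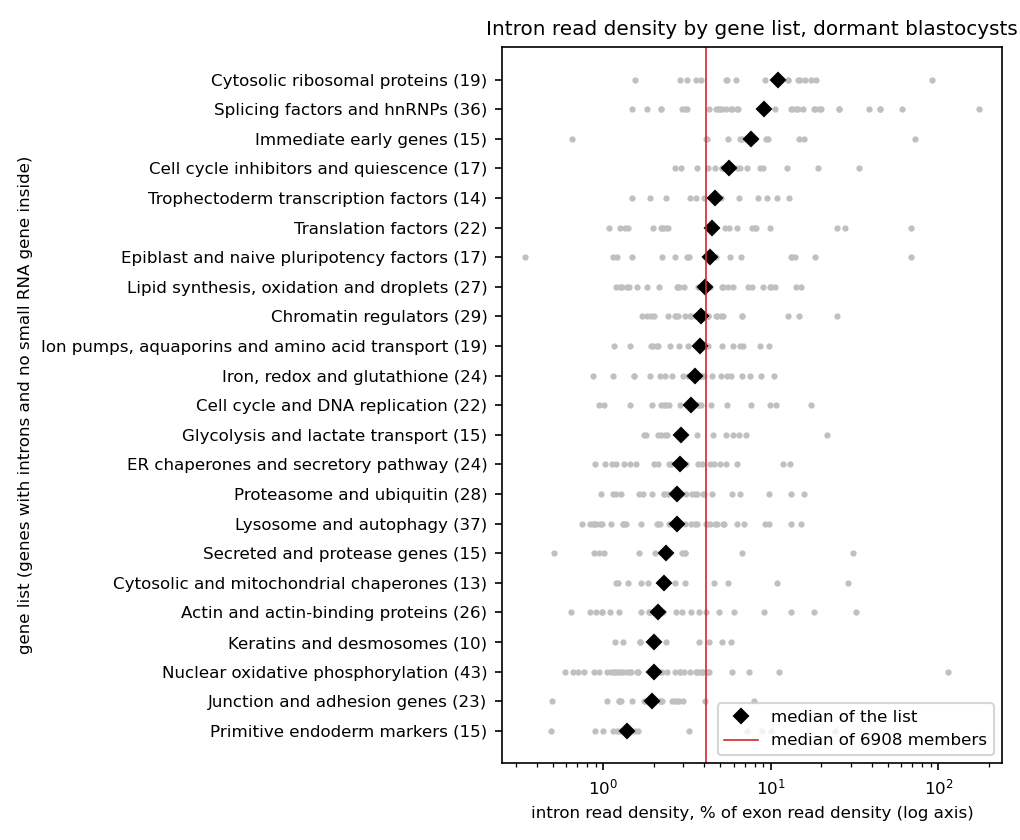
Density of intron reads as a percentage of the density of exon reads (horizontal, log axis) in the dormant library, by gene list, for members with introns and no small RNA gene inside, in lists with at least 10 such genes. Grey points are genes above 0, black diamonds the list medians, from 1.38% for primitive endoderm markers to 10.99% for ribosomal proteins, and the red line the median of 4.10% over 6908 members. The exon reads of ribosomal protein genes, and with them their densities, are uncertain.

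Within the splicing list the genes differed widely. Srsf3, an SR protein, had 496 intron and 134 exon reads (78.7%, interval 75.4 to 81.8%, density 60.7%), Hnrnpf 652 and 187 (77.7%, density 45.0%), and Srsf10 389 and 115 (77.2%, density 175%). Srsf5 and Srsf7 had shares of 47.8 and 44.5%. The large core proteins of the spliceosome were far lower, with 6.02% in Prpf8 and 5.31% in Snrnp200, and so were the abundant Ddx17 (6.22%), Hnrnpu (4.47%) and Hnrnpab (3.04%). The genes of this list with a high share were mostly those with a low RPKM: Srsf3 had 7.15, Hnrnpf 6.15 and Srsf10 1.89 RPKM, against 67.1 for Prpf8 and 119 for Ddx17. Share and RPKM are computed from the same exon reads, and few exon reads lower the RPKM and raise the share, so nothing is read from this. In the reactivating and reactivated libraries the share of Srsf3 was 77.0 and 58.6% and that of Hnrnpf was 82.0 and 66.9%.

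The ranking was then set beside the other 2 libraries, both of which are compared with the same dormant library. A gene was called higher or lower when log2((RPKM + 1)/(RPKM + 1)) was at least 1 in size and the higher of the 2 values reached 1 RPKM, and the pseudocount of 1 understates the change of low genes. At 6 h, of all 12126 genes tested 2.68% were higher and 3.07% lower than in dormant blastocysts, and at 12 h, of 12037, 5.27% were higher and 7.66% lower. With RPKM scaled to the median ratio of the members, which shifts log2 values by -0.06 at 6 h and by 0.11 at 12 h, the counts at 12 h were 803 higher and 756 lower instead of 634 and 922. Of the 100 highest dormant genes 2 were higher and 0 lower at 6 h, and 5 were higher and 14 lower at 12 h. They were chosen for a high dormant value, so nothing is read from these counts. At 6 h 83 of the 100 were still among the 100 highest protein-coding genes, and at 12 h 70 were.

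The 2 genes called at 6 h were S100a1, from 159 to 389 RPKM, and Pfn1, the actin monomer binding profilin, from 164 to 330 RPKM. At 12 h S100a1 was back at 158 RPKM and Pfn1 at 382 RPKM. The other 4 genes higher at 12 h were BC051665 (351 to 818 RPKM), Dstn, an actin severing factor (122 to 297), Aldoa (120 to 286) and Hspa5, a chaperone of protein folding in the endoplasmic reticulum (121 to 266). The genes lower at 12 h were Adh1, Alpl, Apoe, Npc2, Aldh2, Grina, Ahnak, Gjb2, S100a16, Dab2, Klf5, Atp6ap1, Slc6a8 and Slc15a2. Their log2 differences lay between -1.02 for Klf5 and -3.75 for Gjb2. At 6 h none of these 14 had passed the threshold, and the nearest to it was Atp6ap1, an accessory subunit of the lysosomal proton pump, at 71.9 RPKM against 124.

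By rank, Gjb2 went from 50 in the dormant library to 48 and then 2781, Grina from 40 to 90 and 852, Nupr1 from 129 to 349 and 2639, and Cdx2, the trophectoderm factor, from 104 to 182 and 923. Other genes of the dormant top 200 with a large fall in rank were Fxyd6, Abat, Rhob, Pdcd4, an inhibitor of translation, S100a14 and Mgst3. The largest rises were those of Mt1, a metallothionein, from 199 to 164 and 25, of the chaperonin subunits Cct8, Cct7, Cct4 and Tcp1, from 191, 178, 184 and 133 to 62, 59, 87 and 55 at 12 h, and of Pdia3, Asns, Hnrnpab, Mdh1 and Tbrg1.

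Intron shares were compared in the same way. Over 6808 genes with no small RNA gene inside and enough reads in each library, the median share was 23.5% in the dormant library, 22.5% at 6 h and 22.1% at 12 h, the share of summed reads 26.3, 23.9 and 22.5%, and the median density 4.10, 3.87 and 3.79%. A gene was called when its share differed by 10 percentage points or more with Wilson intervals apart, among genes with at least 100 reads in both libraries. The dormant share was above the reactivating one in 5.32% of 9571 genes and below it in 2.63%, and above the reactivated one in 8.61% of 9453 genes and below it in 5.12%. Of the members without a small RNA gene inside, 329 were above and 187 below the reactivating share out of 6889, and 584 were above and 340 below the reactivated share out of 6821. Of the 10 groups by dormant RPKM, the highest had a median share of 12.8% in dormant and 11.1% in reactivated blastocysts, and the lowest had 35.1 and 37.9%. Members and groups were chosen by dormant exon reads, which also enter the dormant share. Nothing is therefore read from how the groups differ between libraries. The part of this choice in the counts and medians of members above was not tested.

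Among the members with the largest differences, exon reads moved in some and intron reads in others. Vrk3, a kinase gene, had a share of 72.7% in the dormant library, 39.1% at 6 h and 32.8% at 12 h, with 609, 173 and 125 intron reads and 229, 270 and 256 exon reads. Myl12b, a regulatory light chain of nonmuscle myosin, had 40.3, 10 and 7.30%, with 464, 642 and 402 intron reads and 687, 5777 and 5102 exon reads. Stip1, which links Hsp70 and Hsp90, had 44.8, 12.4 and 15.5%, and Taf4b, a subunit of TFIID, 49.2, 14.97 and 15.3%. In the opposite direction Patl2 had 19.2, 20.4 and 66.5%, with 320, 469 and 59 exon reads, and Rfc3, a subunit of the clamp loader in DNA replication, had 9.58, 38.4 and 39.3%, with 16, 84 and 164 intron reads and 151, 135 and 253 exon reads. Genes that were abundant in dormant blastocysts and low at 12 h kept a share of the same order: Adh1 had 5.61, 6.31 and 7.98% while its exon reads went from 25528 to 30873 and 5904, Alpl had 9.43, 8.67 and 10.1%, and Aldh2 6.88, 7.27 and 7.17%. Gjb2 had 4.41, 3.16 and 2.76%, with 296 intron reads in the dormant and 17 in the reactivated library. Eif4g2, a translation initiation factor, had 36.3, 75.5 and 68.7%. A small RNA gene inside it has no row in the deposited tables.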

How the data were processed

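RNA of 1 pooled library per state was analysed: dormant, reactivating and reactivated blastocysts, grouped by their GEO titles. The authors deposited, per the file headers, whole-number read counts per gene for exons, introns, exon junctions and the opposite strand, gene and exon lengths, and an RPKM. The genome build is GRCm38 per the submitters' processing notes. How reads were aligned and counted, and against which release of the annotation, is not given in the sources used here. Each deposited RPKM followed from exon reads, exon length and totals of 14118723, 15687239 and 18982195 reads, with 1 exception in the reactivated table. Exon and intron reads added up to the gene's genome and junction reads, less the reads in a column headed Double, in every row. Exon reads thus include junction reads.

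Members were ranked by the deposited RPKM. Symbols, biotypes and positions came from GENCODE M21 by Ensembl ID for 7826 members and from RefSeq by symbol for 41, and 105 had neither. Small RNA genes inside a member were found by position and strand in M21, and their reads are the exon reads of their own rows. Intron length was gene length minus exon length. RPKM intervals are exact Poisson and share intervals Wilson intervals, both at 95%. A count of 0 allows up to 3 reads, which for 1 kb of exon is 0.213 RPKM in the dormant library. The comparisons share the dormant library and have no test. Calls on intron shares were tested on simulated data for dormant against reactivated. In these data 100 of 100 genes raised by 30 points and 100 of 100 lowered ones were called, with 12 of 9231 unchanged ones. The simulated shift was larger than the threshold for a call, so recovery of smaller differences was not tested. Without replicates the spread between libraries is not known, so these counts do not show how reliable the real calls are. Python 3.11.15, NumPy 2.4.6, pandas 2.3.3, SciPy 1.17.1 and matplotlib 3.10.9 were used.

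The members and the 31 gene lists were chosen with earlier results of these data known. Named genes were the 40 highest protein-coding members, the 8 highest others, the 12 highest and 12 lowest intron shares above 0 among protein-coding genes with at least 500 reads, the 3 highest of each list, the markers, and the 10 largest falls and rises in rank among the top 200. Other members of the lists and of the top 100 are named as well, chosen after their values were seen. Some genes that this rule names are not reported here.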

Additional observations from a re-analysis of the deposited data

Results flagged for a closer look

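In 38 members the deposited table holds more reads on the opposite strand of the gene than on its own, a column that enters no comparison above. Jarid2, a subunit partner of the Polycomb complex, had 14303 opposite-strand reads beside 9112 on its own strand, and Supt6, an elongation factor, had 4351 beside 952. Over all members the median of opposite-strand reads was 1.81% of exon reads, and 594 members were above 20%. Among the 100 highest protein-coding genes the largest value was 1.41%.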

How the results depend on the processing

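No paired analysis was possible because each state is 1 library and nothing comes from a test. Of the 40 highest protein-coding genes 22 stayed among the 40 highest when ranked by exon reads without regard to length, and 31 to 40 under the other settings tried. The share of summed RPKM held by the top 100 genes was 21.1%, 20.9% with a minimum exon length of 1000 bases and 20.2% with a minimum of 20 reads. The median intron share of 24.1% was 20.4% with at least 500 exon reads, 22.8% without members with over 20% opposite-strand reads, 24.1% in protein-coding members (24.13 against 24.07), 20.8% without members that hold or overlap another gene and 32.9% as a share of summed reads. Without members with a small RNA gene inside, a setting chosen after seeing the data, it was 23.3%, or 26.3% of summed reads. The lowest of 10 groups by RPKM exceeded the highest by 22.7 percentage points of share, by 22.3 without members with a small RNA gene inside, and by 4.26 points of density. The median density of 4.13% was 4.10% without such members and 4.11% without overlapping ones, both chosen after seeing the data. With a pseudocount of 0.1 the genes higher and lower were 617 and 598 in place of 325 and 372 at 6 h, and 959 and 1630 in place of 634 and 922 at 12 h. Dormant intron shares above the reactivating ones numbered 509, or 161 with at least 500 reads, 91 at 20 percentage points and 329 in members without small RNA genes, and those below numbered 252, or 41 and 35. Against reactivated blastocysts 814 were above, or 390 and 91, and 484 below, or 88 and 99. The cause was not tested where values moved, beyond fewer genes being tested in the stricter settings. Of 31 lists 27 had a median above that of all members, but 18 did when all list genes in the table were taken, whatever their reads, since the limit of 100 reads removes the low ones. The depth limits small shares: intervals cover counting error only, and a difference between 2 libraries without replicates cannot be set against the spread between embryos.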

Other observations

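Some groups of the dormant embryo fit none of the comparisons above. Of 35 proteasome and ubiquitin genes 31 were members, from 9.47 to 71.0 RPKM with a median of 32.2 RPKM, and the other 4 had 0.76 to 7.75 RPKM. The members were led by Uba1, the enzyme that activates ubiquitin, Psmb2 (68.1 RPKM) and Psmb4 (53.9 RPKM). Of 32 genes of iron, redox and glutathione 26 were members with a median of 23.8 RPKM. Gpx1 had 112 RPKM, the metallothioneins Mt1 and Mt2 82.3 and 75.2 RPKM, and Sod2, the mitochondrial superoxide dismutase, 80.8 RPKM, while Nqo1 had 0.37 RPKM. Of the chromatin regulators Trim28, a corepressor of transposable elements, had 112 RPKM, the histone variant gene H2afy 81.1 RPKM and Dnmt3l, a cofactor of DNA methylation, 78.4 RPKM, against 13.3 RPKM for the maintenance enzyme Dnmt1. Among secreted proteins the dormant embryo had 92.6 RPKM of Spp1, osteopontin, 19.5 RPKM of the cytokine Il6 and 24.0 RPKM of Sct, secretin, while the proteases Mmp9 and Mmp14 had 0.22 and 0.57 RPKM.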
